A study of Mus musculus with 2 samples.

Results

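Clusters of Notch1 peaks were examined in gamma delta T cells, the T lymphocytes whose antigen receptor is built from a gamma and a delta chain. The members were chosen from the deposited peak list of 1 Notch1 chromatin immunoprecipitation library (ChIP-seq). Nuclear peaks with a deposited score of 450 or more were joined into a chain when the gap to the next peak was within a set limit, which lay just above the widest gap joined, 12444 bp. A chain was kept when it held 3 or more peaks, and 2 chains with 27 peaks in the first 3.3 Mb of chromosomes 9 and 11, which are pile-ups over repeats, were left out. This gave 109 chains with 409 peaks, 6.92% of the 5910 nuclear peaks. The cells were taken from wild-type newborn C57BL/6 mice (thymus, postnatal day 0 to 3), and the antibody was the rabbit monoclonal D1E11. The library had 1 companion, input chromatin from the same kind of cells, which is not analysed here. There was no replicate, so no comparison below carries a p-value, and intervals (Wilson, 95%) cover counting error over peaks or genes only. The read depth behind each peak is unknown, and the labels do not say how many animals were pooled or how pure the cells were.

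Upon ligand binding, the receptor Notch1 is cut and its inner part travels to the nucleus, where it joins the DNA-binding protein RBPJ and a Mastermind coactivator. Long stretches in which many regulatory elements lie close together, called large, stretch or super-enhancers, are known in T cells to sit at genes of cell identity, and they are defined by histone marks or coactivators. In T-cell leukaemia, much of the Notch1 complex that responds to changes in Notch signalling is known to lie in such enhancers far from promoters, beside sites for RUNX and ETS factors.

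The sequences below stand for the chains that the results turn on, and were taken from the mm10 assembly on its forward strand. Capitals mark the strings named with each set, read on both strands. The first set holds the 10-base string of NF-kB factors (GGGA, then any base, then TTTCC), rare in the peak list, from chained peaks at genes of the NF-kB and RNA decay lists and at Junb.
Junb, chr8:84976458-84976577: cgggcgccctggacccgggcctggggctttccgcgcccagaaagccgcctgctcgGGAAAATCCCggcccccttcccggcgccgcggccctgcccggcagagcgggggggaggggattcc
Tnfaip3, chr10:19008781-19008900: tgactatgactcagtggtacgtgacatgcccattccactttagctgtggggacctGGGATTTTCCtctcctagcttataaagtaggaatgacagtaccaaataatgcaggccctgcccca
Zfp36l1, chr12:80115509-80115628: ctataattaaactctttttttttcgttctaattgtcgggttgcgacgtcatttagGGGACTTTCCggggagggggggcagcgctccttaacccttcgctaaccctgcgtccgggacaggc
The second set holds the RUNX string TGTGGT, and in the chain near Spsb1 also the ETS string AGGAAGT, from intergenic chains away from start sites.
Upstream of Ifngr2, chr16:91533932-91534131: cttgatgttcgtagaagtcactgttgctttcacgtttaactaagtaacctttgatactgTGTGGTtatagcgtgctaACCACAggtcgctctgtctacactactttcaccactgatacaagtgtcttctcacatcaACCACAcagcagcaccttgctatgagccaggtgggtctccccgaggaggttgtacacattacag
Near Spsb1, chr4:149856431-149856730: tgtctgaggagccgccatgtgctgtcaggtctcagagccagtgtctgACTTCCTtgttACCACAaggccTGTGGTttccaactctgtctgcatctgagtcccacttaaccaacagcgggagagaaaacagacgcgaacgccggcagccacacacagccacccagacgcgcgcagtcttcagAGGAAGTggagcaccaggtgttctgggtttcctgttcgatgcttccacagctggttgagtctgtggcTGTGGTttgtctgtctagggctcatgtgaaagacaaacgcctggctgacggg
The third set comes from the antigen receptor loci and marks the RBPJ core TGGGAA together with the RUNX string. The first of these windows holds cores only, and in the Trb window the core and the last RUNX string share 1 base and appear as 1 run of capitals.
Between Trac and Dad1, chr14:54227148-54227447: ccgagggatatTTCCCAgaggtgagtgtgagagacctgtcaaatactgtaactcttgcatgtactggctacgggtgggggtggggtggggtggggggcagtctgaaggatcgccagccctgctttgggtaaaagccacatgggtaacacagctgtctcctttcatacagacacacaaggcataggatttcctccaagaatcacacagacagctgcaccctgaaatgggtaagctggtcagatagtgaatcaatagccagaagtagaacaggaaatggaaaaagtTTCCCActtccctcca
Trb, chr6:41554278-41554577: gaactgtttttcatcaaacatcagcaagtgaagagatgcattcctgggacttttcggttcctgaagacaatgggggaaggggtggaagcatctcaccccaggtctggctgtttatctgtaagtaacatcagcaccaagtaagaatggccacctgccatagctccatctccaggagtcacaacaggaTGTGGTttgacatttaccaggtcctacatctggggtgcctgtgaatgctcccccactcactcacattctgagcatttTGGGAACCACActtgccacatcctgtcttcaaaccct
The last set shows cores in the chain downstream of Ets1 (with its ETS string), in the Il2ra peak, and in an intron of Pde4b, where a pair of cores faces each other head to head.
Downstream of Ets1, chr9:32925798-32925997: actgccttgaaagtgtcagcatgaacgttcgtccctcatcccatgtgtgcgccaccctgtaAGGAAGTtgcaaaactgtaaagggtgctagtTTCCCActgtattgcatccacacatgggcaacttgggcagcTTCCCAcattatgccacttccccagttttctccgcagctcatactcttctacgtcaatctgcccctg
Il2ra, chr2:11643054-11643353: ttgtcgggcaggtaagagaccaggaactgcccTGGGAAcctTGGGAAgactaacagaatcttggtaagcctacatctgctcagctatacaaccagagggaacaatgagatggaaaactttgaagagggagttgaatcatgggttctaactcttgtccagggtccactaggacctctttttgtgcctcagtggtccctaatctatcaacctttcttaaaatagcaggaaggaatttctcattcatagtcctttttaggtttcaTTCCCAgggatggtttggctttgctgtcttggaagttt
Pde4b, chr4:102574566-102574665: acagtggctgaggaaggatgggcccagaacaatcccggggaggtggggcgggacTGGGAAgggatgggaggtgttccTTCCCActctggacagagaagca

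Most chains were shorter than the gap limit that built them, and 28 of the 109 were longer. Their spans ran from 1.48 to 29.4 kb with a median of 8.97 kb, and together they covered 1034 kb, or 0.0390% of the nuclear genome outside assembly gaps. Peaks filled between 5.11 and 89.1% of a span, with a median of 16.7%. There were 63 chains of 3 peaks, 28 of 4, 9 of 5, and 3 each of 6, 7 and 8. The median of the 300 gaps was 1190 bp, and 134 gaps were under 1 kb. Neighbouring peaks that close can be parts of 1 bound stretch that the peak caller listed separately. When peaks with gaps under 1 kb were counted as 1, a choice made after seeing the data, 54 chains still held 3 or more separate stretches.

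The choice of members rested on score and spacing, so the values at its borders are a description. The lowest chained score was 452, followed by 456, and the highest score below the threshold was 449.6. Only 2 peaks below the threshold lay within the gap limit of a chain. The widest gap inside a chain was 12444 bp and the next 12239 bp, while 12928 bp was the narrowest gap from a chain to a peak outside it. Another 359 pairs of peaks, 718 in all, met the gap limit but had no further peak to join, and 4653 peaks were alone.

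The name of large enhancers could be checked only in part. No histone mark or coactivator was measured in the data used, so whether a chain is an enhancer was not tested, and the genes named below are those at or nearest to a chain, not genes shown to respond to it. Of the 109 chains, 64 held at least 1 peak at a promoter, meaning within 1 kb of a start site of any transcript of a protein-coding gene. In 9 chains every peak did, 45 chains had no promoter peak, and in 20 chains all peaks were intergenic. When peaks within 2.5 kb of a start site were removed before chaining, also a choice made after seeing the data, 47 chains with 167 peaks formed.

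A chain over Gm10801 and Gm10800, a pair of predicted genes on chromosome 2 (chr2:98662141-98667399), stood apart. Its peaks scored 3100, 3100, 2727 and 3100, and 57.9% of its bases in peaks were soft-masked as repeats, the only chain above 50%. Its part in the counts was small, since leaving out every repeat-rich peak before chaining (over 50% soft-masked, or over 50% of its 32-base strings repeated in the genome) gave 103 chains and 380 peaks. It is left out of the description of genes below.

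Of the 3 chains with 8 peaks, 2 lay at the receptor-induced factor genes Junb and Nr4a1, and the third at Selplg. Junb, which encodes a subunit of the AP-1 transcription factor, had 8 peaks within 11.7 kb (chr8:84975025-84986769). In genome order, their scores were 1760.2, 3100, 1266, 936, 995, 625, 644 and 2804. The 3100 peak covered the downstream one of 2 Junb start sites, and the 936 peak covered the upstream one. The peak at the other end of the chain lay 3.83 kb upstream of Hook2. Counted with a 1 kb merge, these 8 peaks formed 2 stretches, since most of them lay side by side.

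Nr4a1, an orphan nuclear receptor induced by antigen receptor signals, had 8 peaks over a longer stretch of 21.9 kb (chr15:101253993-101275940), and they formed 6 stretches. The scores ran 733, 817, 1042, 1116, 1029, 696, 686 and 1329.6. No peak stood far above the others, and the highest lay in intergenic sequence past the gene. Its relative Nr4a3 had 5 peaks within 6.97 kb (chr4:48042891-48049864), scoring 1456, 1499, 1300.1, 633 and 726, and the highest values were those of the 3 peaks at and upstream of the start site. Fosb and Fos, both AP-1 subunits, had 3 peaks each. The Fosb peaks (1252, 827 and 819) all lay 5.60 kb or more downstream of its start site. The Fos peaks (746, 586 and 689) lay 1.69 kb upstream of it, over it and 11.5 kb downstream. Of 19 genes on the list of receptor-induced and AP-1 factors these 5 overlapped a chain (26.3%, 11.8 to 48.8), beside 0.488% of all 21924 protein-coding gene symbols, and Nr4a2, Egr1, Jun and Irf4 were among the 14 that did not.

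**Figure D1:**
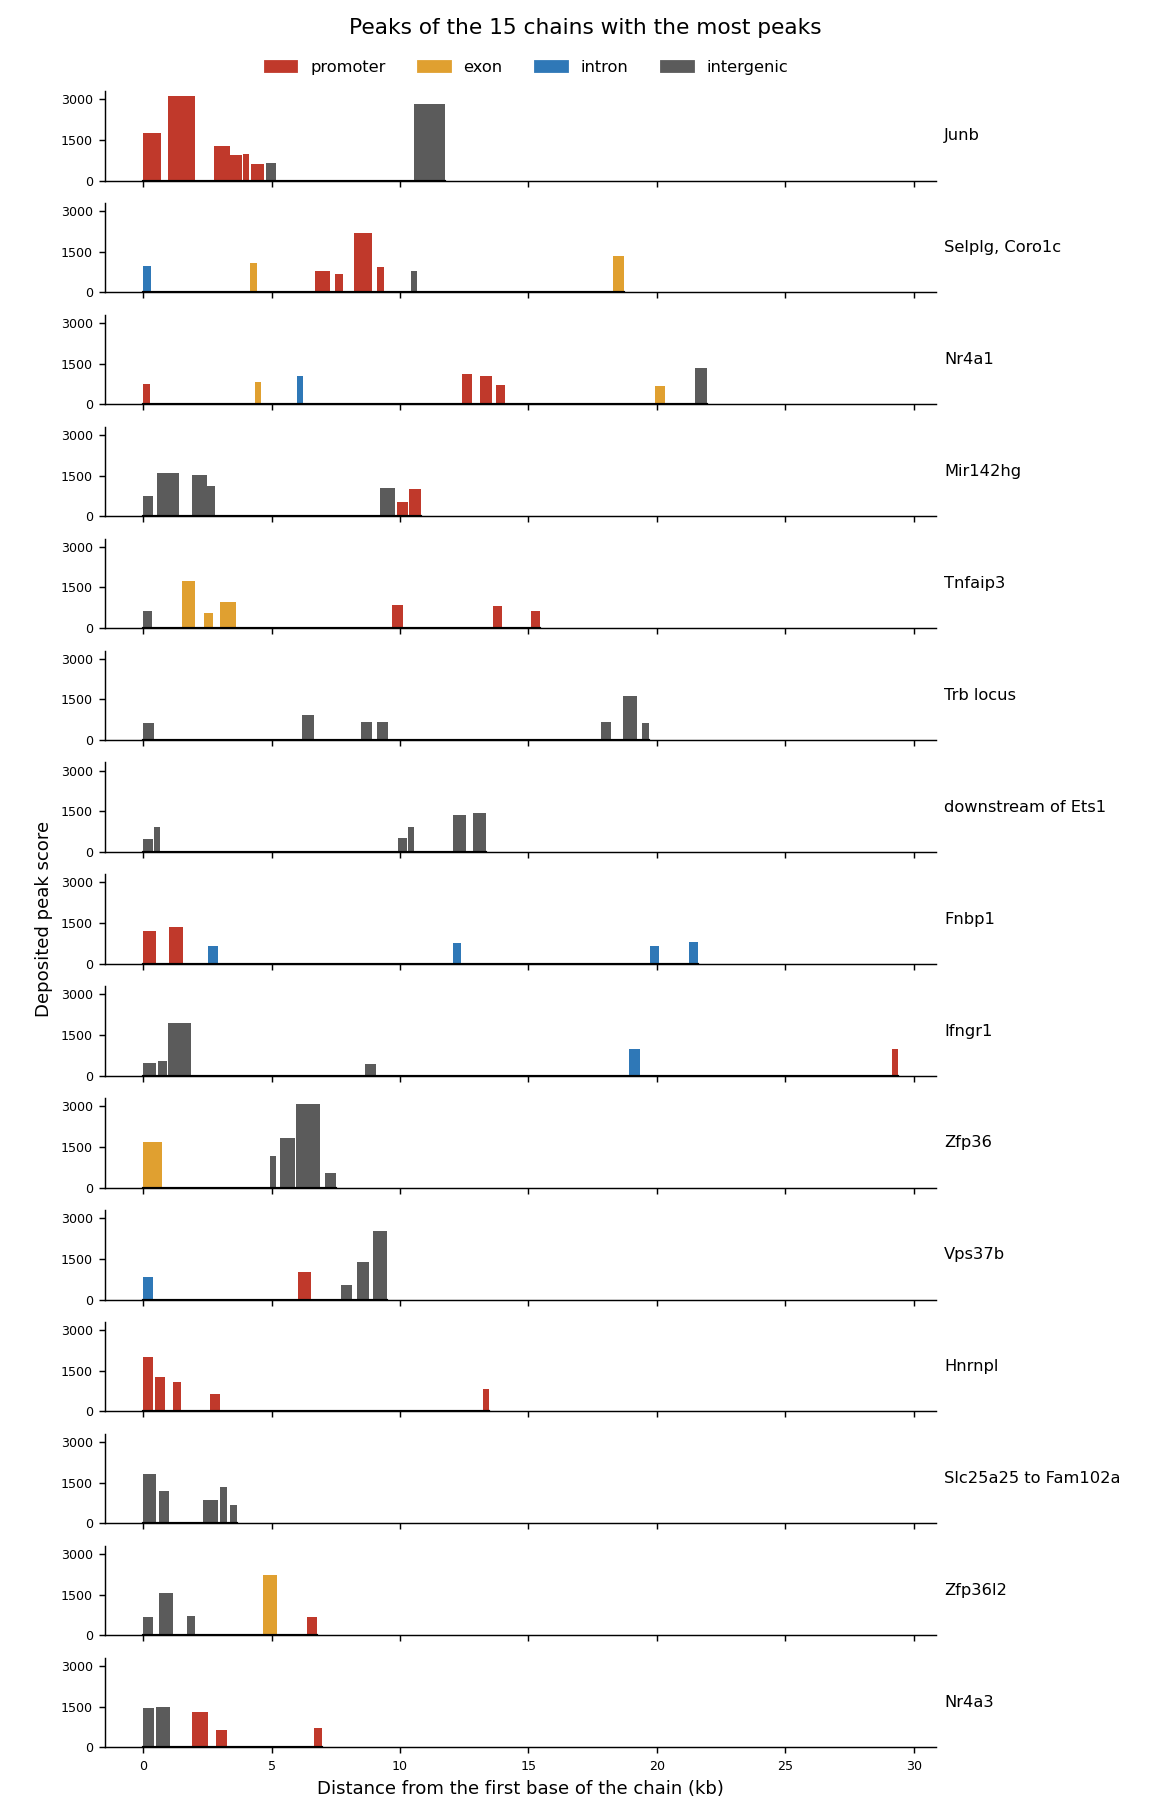
Peaks of the 15 chains with the most peaks. The x axis is the distance from the first base of the chain in kb, the y axis the deposited score, each bar a peak coloured by class and drawn at its width (at least 0.25 kb). Peaks crowd at Junb and spread out at Nr4a1 and Ifngr1, and in the Vps37b chain the highest score (2519.6) lies at its end.

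Of 14 genes of RNA decay and growth restraint, 4 overlapped a chain (28.6%, 11.7 to 54.6), beside 0.488% of all protein-coding genes. Of these 4 genes, 3 are relatives. Zfp36, Zfp36l1 and Zfp36l2 encode zinc finger proteins that bind AU-rich elements of messenger RNAs and lead them to decay. Zfp36 had 5 peaks within 7.51 kb (chr7:28376690-28384203), scoring 1679.9, 1175, 1823, 3100 and 529, and 4 of these lay upstream of the start site, where the score of 3100 was reached 2.40 kb away. Zfp36l2 had 5 peaks (chr17:84180205-84186978), scoring 656, 1555, 709, 2213 and 657, and its highest peak lay 2.53 kb downstream of a start site over an exon. Zfp36l1 had 4 peaks within 3.55 kb (chr12:80112697-80116250), scoring 1512, 1410.3, 3100 and 612, of which the 3100 peak lay 1.31 kb upstream. In all 3 genes the highest peak was outside the promoter window. Cnot6l, a deadenylase of the CCR4-NOT complex, had 3 peaks of lower score (887, 504 and 707), all at its promoter. Btg1, Btg2 and Zc3h12a, which also restrain growth or degrade RNA, were among the 10 without one.

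Among NF-kB and survival genes, Tnfaip3 had 7 peaks over 15.5 kb (chr10:18999087-19014541). It encodes A20, a ubiquitin-editing enzyme that restrains NF-kB. The scores were 650.2, 1721, 574, 946, 867, 800.3 and 639 from the gene's 3' side to its start, and the highest peak lay over an exon 7.72 kb downstream of the nearest start site. The peak printed above, scoring 867, covered a start site of a non-coding Tnfaip3 transcript. Pim1, a serine/threonine kinase that promotes survival, had 3 peaks (705, 581 and 836). The other 17 genes of this list, such as Nfkb1, Nfkbia and Bcl2, overlapped no chain. The share in a chain was 10.5% (2.94 to 31.4), beside 0.488% of all protein-coding genes.

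Transcription factors of the T lineage had chains of 3 or 4 peaks. Those of Bach2, a repressor that restrains effector differentiation, had the highest scores, and in the other 5 factors with a chain over them no peak scored above the 1040.5 of Zeb1. The 4 intronic Bach2 peaks (chr4:32249691-32258656) scored 1656, 1752, 1042 and 2348, the last 10.3 kb downstream of a start site. The Ikaros family members Ikzf3 (679, 648, 891 and 923) and Ikzf1 (957, 579.7 and 842), zinc finger regulators of lymphocytes, had chains across their promoters and introns. Zeb1, a repressor that binds E-box DNA, had 3 peaks (829, 870.4 and 1040.5) on both sides of a start site. In Runx1, which binds the RUNX string, all 3 peaks were intronic and modest (511, 738 and 677), 23.5 kb or more from a start site.

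Ets1, an ETS factor of lymphocytes, had a pair of chains on chromosome 9. The chain in its body (chr9:32696778-32704921), which began 394 bp downstream of a start site, had 3 low peaks, scoring 535, 728 and 524. The chain downstream (chr9:32915800-32929140) began 219 kb from the nearest Ets1 start site, overlapped the non-coding gene Gm27162, and had 6 intergenic peaks scoring 476, 918, 518, 919, 1352 and 1434. In it, 4 peaks scored above every peak of the chain in the gene itself. The next start site on the far side, that of Kirrel3, was 1557 kb away.

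Runx3 and Tox had chains beside them and not over them. The chain of 4 peaks upstream of Runx3, a factor of cytotoxic T cells (chr4:135066969-135080627), scored 618, 871, 726 and 2310.0, with its highest peak closest to the gene at 40.0 kb. The 3 peaks downstream of Tox, a regulator of thymocyte development, scored 636, 667 and 1579 and came within 14.1 kb of a start site. In all, 6 of 37 T lineage factors were in a chain and 2 next to one, where next to means that the gene has the nearest start site on either side within 100 kb. That is 21.6% (11.4 to 37.2), beside 0.858% of all genes in or next to a chain. Tcf7, Gata3, Bcl11b, Sox13 and Tbx21 were among those without a chain.

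Chains also lay in genes of the T cell receptor and its co-receptors. Cd247, the zeta chain of the receptor complex, had 4 intronic peaks of 562, 701, 579.7 and 900.3, all 8.63 kb or more from a start site. Cd69, an early activation antigen that holds lymphocytes in tissue, had 3 peaks (549.8, 585 and 1112), the highest 8.96 kb upstream. Of 25 genes on the list of the T cell receptor and co-receptors, 3 overlapped a chain (12%, 4.17 to 29.96), beside 0.488% of all genes. The Cd3 genes, Cd4 and Cd8a were without a chain.

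Of 26 cytokine receptor and signalling genes 3 lay in a chain (11.5%, 4.003 to 28.98), beside 0.488% of all protein-coding genes. The chain at Ifngr1, the ligand-binding subunit of the interferon-gamma receptor, was the longest of all at 29.4 kb (chr10:19577011-19606394). Its 6 peaks scored 463, 537, 1928, 452, 990.1 and 988, and the high peak of 1928 lay 13.1 kb upstream of a start site. Ifngr2, the partner subunit of that receptor, had 4 peaks 12.2 kb to 13.996 kb upstream of it (chr16:91532698-91534909), packed into 2.21 kb and scoring 1652, 661, 3100 and 873. All 7 copies of the RUNX string there lay in 3 of the 4 peaks, and none of the peaks held the RBPJ core. Il2ra, the alpha subunit of the interleukin-2 receptor, had 4 peaks spread over 19.6 kb (chr2:11635961-11655560), scoring 464, 766, 666 and 639. Its promoter peak printed above held 3 RBPJ cores. The first of the 4 peaks was near the score threshold. Il6ra, the interleukin-6 receptor, had 3 peaks (724, 632 and 1218) in its body, 40.6 kb or more from its start site. Ifngr2 is not on the list, and Il7r, Il2rb and Stat5b, which are, had no chain.

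The homing list gave 1 of 19 genes (5.26%, 0.935 to 24.6), beside 0.488% of all protein-coding genes. Selplg encodes PSGL-1, the ligand of selectins, and shared 8 peaks over 18.7 kb (chr5:113824031-113842758) with Coro1c, which encodes an actin-binding coronin. They scored 966, 1072, 806, 664, 2199, 938, 799 and 1359, and the highest peak covered a Selplg start site. The receptor genes Ccr7, Ccr9 and S1pr1 were without a chain.

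Of 21 receptors, ligands, cofactors and targets 0 overlapped a chain, and 1 was next to one, the target gene Hey1 (4.76%, 0.846 to 22.7). With 0.488% of all genes in a chain and 0.858% in or next to one, a list of 21 genes is too short to show a lack of chains. Its chain of 3 peaks (chr3:8766458-8768190), scoring 631, 1579 and 1266, lay 99.2 kb upstream of Hey1, close to the 100 kb limit. Of the Gimap GTPase genes 0 of 8 were in or next to a chain, and so were 0 of 15 genes on each of the lists for liver, neurons, thymic stroma, myeloid cells and B cells (upper bound 20.4% each). With 15 genes a list, a share as low as that of all genes could not be told from 0. Over all 14 lists, 24 of 262 genes were in a chain and 3 next to one. These lists were drawn up with earlier results of the same peaks known, so the T cell counts are not independent evidence.

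**Figure D2:**
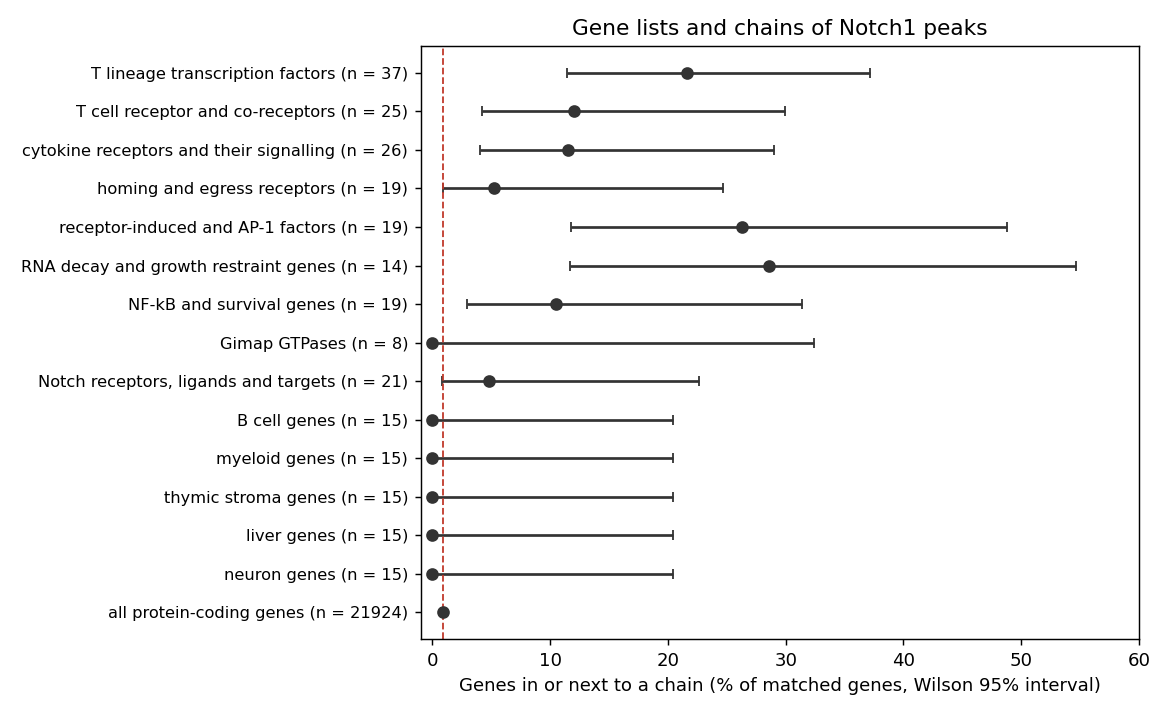
Share of each gene list in or next to a chain, in percent of its matched genes, with Wilson 95% intervals, and n the number of genes. The dashed line is the share of all protein-coding genes (0.858%). The points for RNA decay, receptor-induced and T lineage genes lie at 28.6, 26.3 and 21.6%, and those for other cell types lie at 0.

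At the antigen receptor loci, which T cells rearrange, chains lay over or beside the segments of Trb and Tra. The Trb chain (chr6:41535337-41555039) ran over the D, J and constant segments, and its 7 peaks scored 643, 927, 648, 656, 656, 1620.3 and 624. The high peak is the one printed above and lies where the Trb enhancer is known to be. In 5 of its 7 peaks the RBPJ core was present, in up to 2 copies. The Tra chain (chr14:54224608-54231685), between the Tra constant gene and Dad1, had 3 peaks scoring 831, 3100 and 1159. The 3100 peak lies where the Tra enhancer is known to be, and peaks on either side, 831 and 1159, made it a chain. Trg had no chain.

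Of the 109 chains, 24 overlapped no protein-coding gene. The nearest start site lay between 152 bp and 235 kb away, with a median of 21.99 kb, and within 50 kb for 20 of them. The Mir142hg chain (chr11:87749565-87760389), at the gene that hosts the blood cell microRNA miR-142, had 7 peaks. Their scores were 759, 1603, 1506, 1098, 1053, 526 and 1004. The 3 highest were among the 4 peaks farthest from Tspoap1, and the last lay 152 bp upstream of that gene. Between Slc25a25, a mitochondrial carrier gene, and Fam102a, 5 peaks within 3.66 kb (chr2:32492908-32496570) scored 1809, 1179, 872, 1352 and 663, about as far from either start site (41.5 and 38.8 kb). Upstream of Kmt2e, which encodes a SET domain protein, 4 peaks (chr5:23418388-23434155) scored 2536, 700.3, 2293 and 679.6. The highest lay 15.5 kb from its start site, and the span overlapped the non-coding gene 5031425E22Rik.

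Other chains without a gene in the span were singled out after their values were seen. A chain between Tbc1d1 and Klf3 (chr5:64496764-64500212) had 4 peaks (763, 1345, 1204 and 1371) at 198 kb or more from the nearest start site. A chain between Rplp1 and Tle3 (chr9:61669870-61679852), the latter a Groucho-type corepressor gene, had 4 peaks (769, 582, 893 and 2022) no nearer than 235 kb to a start site. In the chain near Spsb1, an adaptor gene with a SOCS box (chr4:149854227-149857355), 4 peaks scored 872, 734, 2128 and 979, and the high peak held the 3 RUNX and 2 ETS strings printed above. In the chain by Plaur, the urokinase receptor gene (chr7:24456312-24459208), 4 peaks scored 754, 678, 2145 and 743, and each of them held at least 1 RBPJ core.

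Chains taken for their number of peaks or their highest score also lay over genes outside the lists. Hnrnpl, a splicing factor gene, had 5 promoter peaks (2008, 1284, 1105, 661 and 846) within 13.5 kb. Vps37b, a subunit of the ESCRT-I sorting complex, had 5 peaks (839, 1010.2, 540.2, 1390.0 and 2519.6), and Fnbp1, which encodes a formin-binding protein, had 6 (1204, 1350.3, 651, 776, 672 and 800.3). At the promoters of Mrps18b and Ppp1r10, 3 peaks within 2.29 kb scored 943, 1085 and 2998. Tgif1, a homeobox repressor gene, had 3 promoter peaks with a single high score (2183, 815 and 588). At Amz2 and 9930022D16Rik, 4 peaks scored 556, 1873, 2206 and 909. Singled out after their values were seen, the histone demethylase gene Kdm6b had 3 peaks (662, 1970.3 and 1608) within its body, and the chain of Vmp1 (1861, 728, 626 and 750.4) overlapped Mir21a, which encodes the microRNA miR-21. In all, 6 microRNA genes lay in chain spans, with Mir142 and Mir142b in the same chain. The share of all microRNA genes in chains was not counted, so this number is a description only.

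Within a chain, scores were uneven. The highest score of a chain ran from 574 to 3100 with a median of 1252, and the ratio of the highest to the median score ran from 1 to 3.38 with a median of 1.39. Since the score chose the members, these are descriptions. Of the 36 nuclear peaks with a score of exactly 3100, a shared value that may be a ceiling, 8 were chained, in 6 chains. The highest peak was at a promoter in 36 chains, intergenic in 36, intronic in 29 and exonic in 8. Among the 55 chains with both promoter and other peaks, the highest peak was away from the promoter in 28. Over all 109 chains, the highest peak was the first of the chain in 30, the last in 39 and inside in 40.

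**Figure D3:**
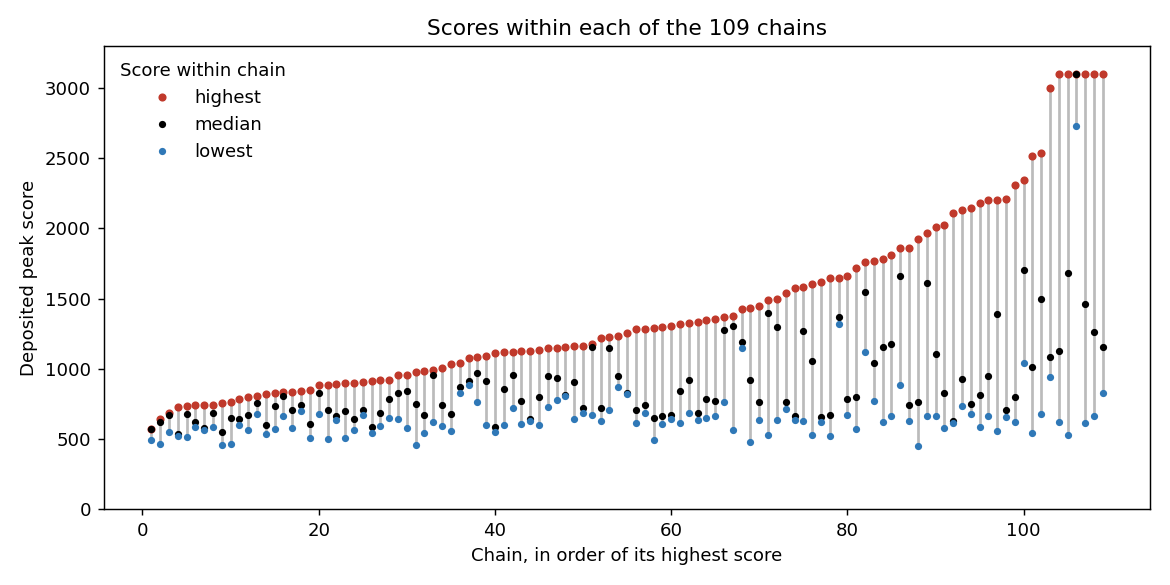
Scores within each of the 109 chains. The x axis orders chains by their highest score, the y axis is the deposited score, and points give the highest, median and lowest peak, joined by a line. The highest scores climb from 574 to 3100 while most of the lowest remain under 1000. The median point at 3100 is the repeat-rich chain on chromosome 2.

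Chained peaks lay nearer to genes than the peaks with fewer neighbours. Of the chained peaks 30.8% (26.5 to 35.4) were at promoters, 27.02% (23.9 to 30.4) of peaks in pairs and 17.2% (16.1 to 18.3) of lone peaks, beside 19.6% of all peaks at or above the threshold. The interval of chained peaks overlapped that of pairs and not that of lone peaks. Intergenic peaks were 34.2% (29.8 to 39.0) of chained and 44.7% (43.3 to 46.2) of lone peaks. Intronic peaks made up 27.9 and 33.4%, and exonic peaks 7.09 and 4.69%. The median distance to a start site was 3.53 kb for chained, 7.35 kb for paired and 19.1 kb for lone peaks. Within 50 kb of a start site lay 94.1% (91.4 to 96.0) of chained peaks, 78.7% of pairs and 66.4% of lone peaks. Neighbours in a chain share a locus, so these intervals are too narrow.

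**Figure D4:**
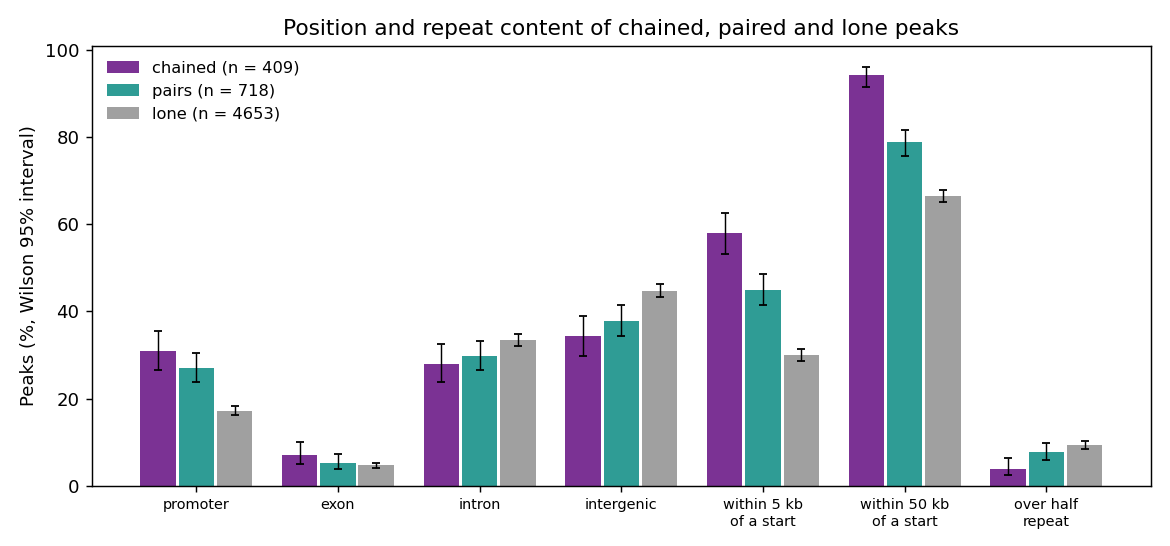
Position and repeat content by number of neighbours. The y axis is the share of peaks in percent with Wilson 95% intervals, for chained peaks (n = 409), pairs (n = 718) and lone peaks (n = 4653). Promoter peaks fall from 30.8 to 17.2% from chained to lone peaks, while the intergenic share goes from 34.2 to 44.7%.

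Repeat content in chained peaks is partly set by the rule, which left out 2 chains over repeats. Of the chained peaks 3.91% (2.42 to 6.26) were repeat-rich, against 9.28% (8.48 to 10.2) of lone peaks and 9.02% of all peaks at or above the threshold. With the 27 left-out peaks the chained share was 37 of 436, or 8.49% (6.22 to 11.5), which overlapped that of lone peaks. The 16 repeat-rich peaks lay in 12 chains. Chained peaks had a median GC content of 49.5% against 42.9% in lone peaks, and a median width of 394 against 365 bp. Both move with the motif shares below, and their part in those was not tested. Of the 237 chained peaks within 5 kb of a start site, 46 covered it, 92 lay upstream and 99 downstream. Over all 409 chained peaks, 156 lay upstream and 207 downstream of the nearest start site.

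The chains were spread over 19 chromosomes, with 15 on chromosome 11, 12 on chromosome 4 and 10 on chromosome 2. A chain had another within 250 kb in 11 cases. Besides the chains at Ets1, these included Vps37b with Abcb9, and the chain upstream of Ifngr2 with a chain at Ifnar1, a receptor gene for type I interferons. On chromosome 7, chains at Zfp36, at Samd4b and Pak4, and at Hnrnpl followed each other.

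The strings of T cell factors were then counted in chained peaks. The RBPJ core TGGGAA was present in 33.3% (28.9 to 38.0) of chained peaks, 32.3% of pairs and 28.4% (27.2 to 29.7) of lone peaks, beside 29.2% of all peaks at or above the threshold and 25.6% of RefSeq promoters, which are shorter than the median peak. The intervals of chained and lone peaks overlapped. Per kb of peak the copies were almost level, 0.981 in chained and 0.960 in lone peaks. The reverse-ordered string AAGGGT, counted as a control with the same base content, was also more frequent in chained peaks (22.98%, 19.2 to 27.3) than in lone peaks (15.3%) and than in all peaks at or above the threshold (15.8%). Over all peaks, the difference between chained and lone peaks was smaller for the core than for its control string. Away from promoters the core was in 36.4% (31.01 to 42.1) of 283 chained and 27.6% (26.2 to 29.1) of 3854 lone peaks, and these intervals did not overlap. Of 524 paired peaks away from promoters 33.2% (29.3 to 37.3) held the core, an interval that overlapped that of chained peaks. Away from promoters the control string was in 23.3% (18.8 to 28.6) of chained, 16.4% (13.5 to 19.8) of paired and 15.2% (14.1 to 16.3) of lone peaks. In percentage points, its difference between chained and lone peaks was slightly smaller than that of the core. Relative to the lone share, it was larger. At least 1 peak with the core was found in 78 of 109 chains, and 2 or more in 37, beside 64 and 25 chains for the control string. Such counts rise with the number of peaks in a chain. A head-to-head pair of cores 12 to 22 bases apart was found in 1 chained peak, the Pde4b intron peak of score 588, and in 2 other peaks.

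The RUNX string TGTGGT was found in 32.3% (27.9 to 37.0) of chained peaks, 30.1% of pairs and 25.8% (24.6 to 27.1) of lone peaks, beside 26.8% of all peaks at or above the threshold and 16.8% of RefSeq promoters. Per kb the copies were 1.06 in chained and 0.898 in lone peaks. In percentage points, the difference between chained and lone peaks was smaller than that of the control string over all peaks and larger away from promoters. Relative to the lone share, it was smaller in both. The intervals of chained and lone peaks did not overlap. Away from promoters the shares were 37.5% (32.02 to 43.2) of chained, 35.3% (31.3 to 39.5) of paired and 26.6% (25.3 to 28.04) of lone peaks. There the chained interval overlapped that of pairs and not that of lone peaks. At least 1 peak held the RUNX string in 73 chains, and 2 or more did in 42, beside 64 and 25 chains for the control string. The ETS string AGGAAGT was present in 13.7% of chained and 10.1% of lone peaks (10.5% of all, 9.35% of RefSeq promoters), with overlapping intervals. Away from promoters it was in 15.9% (12.1 to 20.6) of chained, 12.02% (9.51 to 15.1) of paired and 9.78% (8.88 to 10.8) of lone peaks. Here too the chained interval overlapped that of pairs and not that of lone peaks. This rise from lone to chained peaks was smaller than that of the control string in percentage points. Relative to the lone share, it was larger. Both RUNX and ETS strings were held by 27 peaks in 24 chains.

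Both E-box strings were more frequent in chained than in lone peaks, and so was the control string (22.98 against 15.3%). Over all peaks, both rose less than the control string relative to the lone share. In percentage points, CAGGTG rose more than the control string there and CAGCTG less. CAGGTG, bound by ZEB and E proteins, was found in 29.6% (25.4 to 34.2) of chained, 26.3% (23.2 to 29.7) of paired and 20.7% of lone peaks (22% of all, 20.2% of RefSeq promoters). CAGCTG, bound by E proteins, was found in 21.3% (17.6 to 25.5), 18.4% (15.7 to 21.4) and 14.6% (15.5% of all, 16.3% of RefSeq promoters). For both, the intervals of chained and paired peaks overlapped. GGGCGG, the string of SP and KLF factors, stood at 20.8% (17.1 to 24.98) in chained, 17.3% (14.7 to 20.2) in paired and 9.86% in lone peaks (11.5% of all, 35.7% of RefSeq promoters). Away from promoters it stood at 17.7, 8.02 and 4.18%. The TCF/LEF string TCAAAG (24.7 against 25.2%, 25.3% of all, 16.0% of RefSeq promoters) and the STAT string TTCNNNGAA (11.2 against 11.5%, 11.3% of all, 8.30% of RefSeq promoters) differed by less than their intervals. The GATA string AGATAA was in fewer chained than lone peaks (17.4 against 21.1%, 20.6% of all, 11.2% of RefSeq promoters), and the AP-1 string TGANTCA in 12.96 against 10.5% (11.1% of all, 7.81% of RefSeq promoters), both with overlapping intervals. In pairs the shares were 19.4% for GATA and 13.9% for AP-1.

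The NF-kB string was rare, with 8 of 409 chained peaks (1.96%, 0.994 to 3.81), 4 of 718 in pairs (0.557%) and 12 of 4653 lone peaks (0.258%, 0.148 to 0.450), beside 0.413% of all peaks at or above the threshold and 0.411% of RefSeq promoters. The 8 peaks lay in 8 different chains, those of Junb, Tnfaip3 and Zfp36l1 printed above and, named after their values were seen, those of Chd2, Polg2, Ccdc107, Abcb9 and Nsg2. Of these, 5 lay at promoters, and away from promoters the shares were 3 of 283 and 11 of 3854. The 3 peaks at Junb, Tnfaip3 and Zfp36l1 scored 3100, 867 and 3100.

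**Figure D5:**
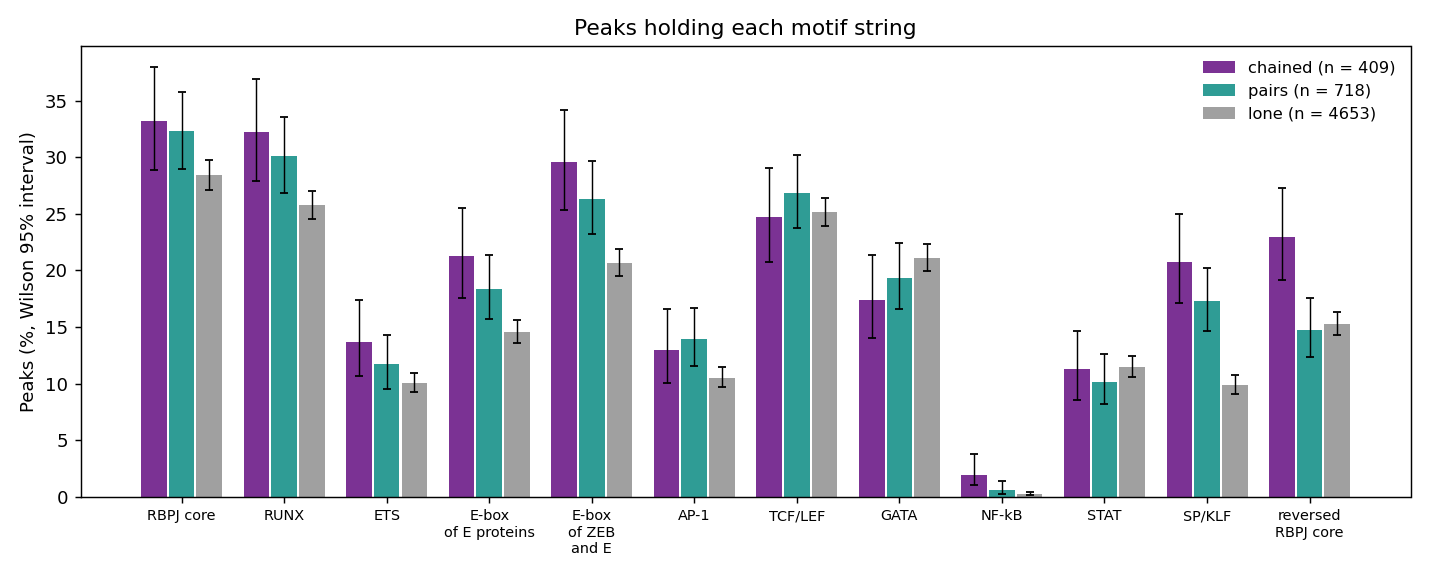
Share of peaks that hold each string on either strand, in percent with Wilson 95% intervals, for chained (n = 409), paired (n = 718) and lone peaks (n = 4653). RUNX, both E-boxes, SP/KLF and the reversed core used as a control stand higher in chained than in lone peaks, while TCF/LEF and STAT are level.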

How the data were processed

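The deposited list gives the position of each peak, a name beginning with MACS and a score, the authors' own value, here used only to describe, rank and filter peaks within the list. Build mm10, Bowtie 1.0.0 and SAMtools 0.1.18 come from the submitters' processing notes. Not given in the sources used here are the read depth, the version and settings of MACS, the treatment of duplicates and whether the input served as control. The score of 3100, shared by several peaks, may be a ceiling. Samples were grouped by the antibody label, giving 1 Notch1 and 1 input library.

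Chaining, classes (promoter, then exon, intron, intergenic, by at least 1 bp of overlap), gene lists and string counts were computed in Python 3.11.15 with pandas 2.3.3 and numpy 2.4.6, and were tested on simulated data. Genes and start sites came from GENCODE M21, and promoters of RefSeq (GRCm38.p6, 32851 promoters) gave the string shares. Strings were read on both strands as present or absent in a peak. Intervals are Wilson 95% intervals, and lists held 262 matched symbols.

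Named were the 15 chains with the most peaks (ties by summed score), listed genes overlapping a chain, up to 10 further chains by highest score, and chains over antigen receptor loci. Not every gene taken by the rule is reported here. The members and lists were chosen with earlier results of these data known. Alternatives changed 1 choice at a time: gap, score, number of peaks, promoter window, start sites, peak centre, distance to genes and repeats. A further 2 were chosen after seeing the data. No test was run, since there is 1 Notch1 library.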

Additional observations from a re-analysis of the deposited data

How the results depend on the processing

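Of the values recomputed, 62 stayed within 1.5 times the reported count or within its interval, and 25 moved. Stricter rules left fewer members. With a score of 800 or more there were 29 chains, 105 peaks and 10 listed genes, the median score was 1232, and the RBPJ core lay in 27.6% and the RUNX string in 41.9% of peaks. With a score of 600 or more the median score was 893. With 4 or more peaks there were 46 chains, 220 peaks and 15 listed genes. Counting peaks with gaps under 1 kb as 1 gave 54 chains, 219 peaks and 14 listed genes. A gap limit of 5 kb put a start site in the span of 45% of chains (56.0% as reported), and start sites of all genes put it in 67.0%. With a promoter window of 500 bp, 24.2% of chained peaks were at promoters. In the central 200 bp of peaks the core was found in 17.4% and the RUNX string in 18.6%. Removing peaks within 2.5 kb of a start site before chaining left 47 chains, 167 peaks and 11 listed genes, with 0% at promoters, a start site in 10.6% of spans, the core in 39.5% and the RUNX string in 42.5% of peaks. This and the 1 kb merge were chosen after seeing the data. No paired analysis was possible because there is 1 Notch1 library and the input is not analysed here. Depth is unknown, so weak peaks between chained ones may be missing from the list.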
